A study of Mus musculus with 15 samples.

Results

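The endothelin system was described across lymph node lymphatic endothelial cells (LECs) from their transcript levels. It was taken as the 5 genes Edn1, Ece1, Ece2, Ednra and Ednrb, found by symbol among the 45706 genes of the deposited expression table. All 5 were among the 17650 genes with enough counts to test. The 15 libraries came from cells kept for 72 h without added VEGF-C (unstimulated), or with the recombinant murine protein at 10 ng/mL or 100 ng/mL, with 5 libraries, A to E, in each group. VEGF-C is the growth factor that LECs sense through Flt4. All groups shared their origin, since the cells were Pdpn+ CD31+ CD45- and came from several lymph node sites, pooled, of female C57Bl/6 mice, and were grown in culture before stimulation. Nothing in the labels states that libraries A to E were grown as separate cultures. Errors and p-values here therefore measure library-to-library spread, part or all of which may be technical.

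Endothelins are short peptides that contract or relax vessels and act on neighbouring cells. Edn1 is the classical endothelial ligand; furin-like convertases cut its precursor to big endothelin, which the membrane peptidase Ece1 and its relative Ece2 turn into the active form. Ednra, the A receptor, is best known for contraction of smooth muscle, and Ednrb, the B receptor, is known in endothelium for raising nitric oxide and prostacyclin and for clearing endothelin from the surroundings. The question the design puts to these genes is how ligand, converting enzyme and receptor transcripts stand at each dose of VEGF-C.

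Ednrb and Edn1 were the 2 members that lay furthest apart between doses, so the region around their start sites is shown. Each sequence holds 250 bases before the annotated start and 50 from it, read 5′ to 3′ on the strand of the gene, from RefSeq on GRCm38.p6. Ednrb lies on the minus strand (chr14:103843652-103843951), inside the span that the deposited table gives to the gene (103814623 to 103844173), so that table starts the gene further upstream, as does GENCODE M21, at 103844402. Edn1 lies on the plus strand (chr13:42301226-42301525), and its RefSeq start is the GENCODE M21 start, 42301476, while the deposited table starts the gene upstream, at 42301268. Capitals mark matches to motifs of factors known to act on Edn1, searched on both strands: GATAA for GATA factors, TGANTCA for AP-1 and ACGTG for HIF.
Ednrb: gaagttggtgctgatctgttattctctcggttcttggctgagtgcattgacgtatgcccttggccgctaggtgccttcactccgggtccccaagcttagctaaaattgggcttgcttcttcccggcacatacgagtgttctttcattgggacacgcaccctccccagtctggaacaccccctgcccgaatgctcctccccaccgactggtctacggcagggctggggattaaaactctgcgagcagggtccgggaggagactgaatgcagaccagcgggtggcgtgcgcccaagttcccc
Edn1: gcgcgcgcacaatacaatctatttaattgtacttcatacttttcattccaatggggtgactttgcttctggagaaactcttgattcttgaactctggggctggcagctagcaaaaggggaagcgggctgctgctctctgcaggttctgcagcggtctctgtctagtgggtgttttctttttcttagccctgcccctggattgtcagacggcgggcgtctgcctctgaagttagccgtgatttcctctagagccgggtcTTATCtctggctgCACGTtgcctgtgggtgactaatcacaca
Edn1 held the GATA motif on the minus strand (TTATC as written) at bases 9 to 13 after the start, counted from 1 at the start itself. It held the HIF motif on the minus strand (CACGT) at bases 22 to 26, and these matches did not overlap. Among 32851 promoters of the same length, 25.4% held GATAA, 19.6% held ACGTG and 4.11% held both. TGANTCA was in 7.81% of those promoters and had no exact match in the windows of the members. Stretches that differ from it by a base, such as tgactaa near the end of the Edn1 window, were not searched for. No motif of the 3 was found in the windows of Ednrb or Ednra, nor in those of the other ligand genes Edn2 and Edn3. For Ednrb, the bases before the upstream starts given above lie outside the window and were not searched. ACGTG was also found in the single window of Ece2 and in 1 of the 4 windows of Ece1. A match is a stretch of letters and not a measured binding site.

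The libraries held 27784906 to 38590841 estimated counts. Of the variance, 64.8% lay on the first principal component, which parted the 100 ng/mL libraries from the other 10, with library B of the 100 ng/mL group at 38.8, against 69.8 to 78.5 for the other 4. On the second component the lowest scores were those of 100 ng/mL B, unstimulated E and 10 ng/mL D. Of the lymphatic markers, Prox1 averaged 242.5, 278.2 and 477.7 CPM (each count as a share of its library, with TMM scaling) at 0, 10 and 100 ng/mL, and Pdpn, Lyve1, Flt4, Pecam1 and Cdh5 were all present. Ccl21a and Mmrn1, which mark LECs in lymph nodes, reached at most 0.131 and 0.0311 CPM in any library. Over all genes, 42.9% were called at 100 ng/mL against unstimulated (adjusted p under 0.05 in edgeR's quasi-likelihood test), 21.4% higher and 21.5% lower, and 0% at 10 ng/mL against unstimulated. The members were chosen with the 100 ng/mL results known, so their own values at that dose are a description with no test.

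The ligand gene Edn1 (ENSMUSG00000021367, chr13:42301268-42307989, plus strand, GRCm38) was abundant in unstimulated and 10 ng/mL cells and low at 100 ng/mL. Unstimulated libraries A to E held 1009, 938.7, 950.5, 955.8 and 745.1 CPM, and the 10 ng/mL libraries 1083, 1075, 1072, 689.4 and 1141 CPM. The 100 ng/mL libraries held 49.1, 119.4, 64.3, 34.4 and 40.3 CPM. Every 100 ng/mL library lay below every other library, and B was the highest of them. Over all genes, 27.2% had no overlap between 100 ng/mL and unstimulated libraries, 13.5% higher and 13.7% lower. The share with no overlap against both other groups was not counted. The log2 fold change was -3.90 ± 0.30 (SE) at 100 ng/mL against unstimulated and -4.04 ± 0.30 at 100 ng/mL against 10 ng/mL. Without library B the 100 ng/mL mean was 47.0 ± 13.02 CPM (SD, n = 4), against 61.5 ± 34.3 with it (n = 5). Edn1 had the 41st lowest log2 fold change of the 17650 genes at 100 ng/mL against unstimulated. By length-corrected level (RPKM, reads corrected for gene length and library size, as deposited) Edn1 ranked 74 among genes above 0 in unstimulated cells, 71 at 10 ng/mL and 2764 at 100 ng/mL. An antisense gene, Gm47118, overlaps Edn1, and whether counting used strand was not given. In a bulk culture, fewer cells of a type and less RNA per cell cannot be told apart.

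**Figure D1:**
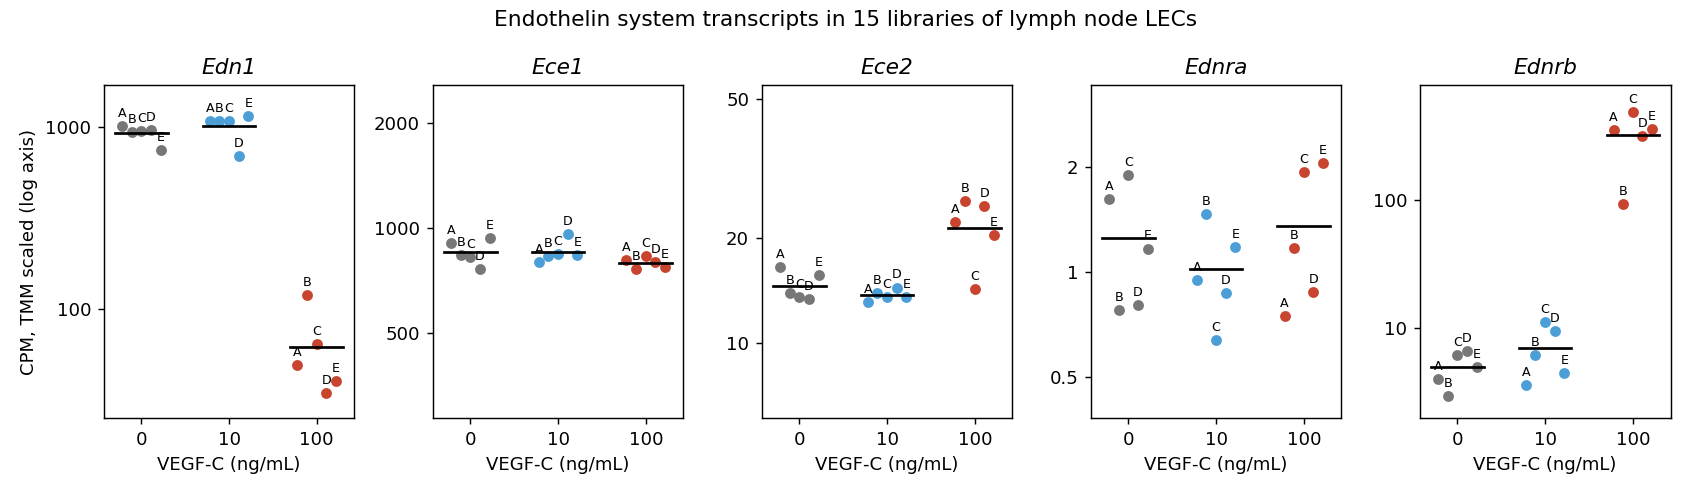
CPM on log axes for each endothelin member in every library (letters A to E), by VEGF-C dose in ng/mL, with a bar at the mean of each group. Edn1 at 100 ng/mL lies between 34.4 and 119.4 CPM, below all other libraries, and Ednrb at 100 ng/mL lies between 93.4 and 491.5 CPM, above all others.

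The other ligand genes, which are not members, were also lower at 100 ng/mL. Edn2 held 0.81, 1.47, 0.655, 0.292 and 0.541 CPM in libraries A to E at 100 ng/mL, against 13.1, 10.39, 10.11, 9.99 and 7.70 CPM in unstimulated libraries. Edn3 held 0.716, 0.735, 0.95, 0.511 and 0.626 CPM at 100 ng/mL, against 5.50, 4.81, 4.50, 4.85 and 3.71 CPM in unstimulated libraries. The 100 ng/mL and unstimulated libraries did not overlap for either gene, as for 13.7% of all genes in this direction. By edgeR's quasi-likelihood test the log2 fold changes were -3.76 ± 0.28 for Edn2 (SE, adjusted p = 1.22e-07) and -2.72 ± 0.17 for Edn3 (adjusted p = 2.75e-08). These genes were also chosen with earlier results of these data known, which limits what the p-values show. Edn2 rested on 8.28 to 43.7 estimated counts per library at 100 ng/mL. Edn1 made up 98.0 ± 0.18% of summed ligand RPKM in unstimulated cells, 98.0 ± 0.10% at 10 ng/mL and 97.4 ± 0.49% at 100 ng/mL (SD, n = 5 each). Edn1 was thus nearly all of the ligand transcript in every group. The ratio of Edn2 to Edn1 varied by 7.80% (coefficient of variation) over the 10 libraries at 0 and 10 ng/mL, less than the 17.3% of Edn2 itself. For Edn3 to Edn1 it varied by 4.22%, less than the 15.5% of Edn3 itself. Over all 15 libraries these ratios varied by 16.3% and 57.3%. Edn2 and Edn1 transcripts share 5 of 1438 stretches of 25 bases and none of 50, and whether reads were shared between them was not tested. Edn3 shares 0 of 4126 stretches of 25 bases with Edn1.

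The converting enzymes varied over a far narrower range than the ligand. Ece1 (ENSMUSG00000057530, chr4:137862235-137965229, plus strand) encodes the main endothelin-converting enzyme. It held 909.1, 835.0, 828.5, 765.9 and 936.9 CPM in unstimulated libraries A to E, 797.1, 832.4, 844.4, 963.0 and 837.8 CPM at 10 ng/mL, and 810.0, 761.7, 832.1, 799.6 and 773.6 CPM at 100 ng/mL. The 3 groups overlapped. The log2 fold change was -0.10 ± 0.06 (SE, 95% confidence interval -0.24 to 0.03) at 100 ng/mL against unstimulated, and -0.10 ± 0.06 at 100 ng/mL against 10 ng/mL. An antisense gene, Gm13012, overlaps Ece1. Ece1 ranked 238, 234 and 272 among genes above 0 by mean RPKM at 0, 10 and 100 ng/mL.

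Ece2 (ENSMUSG00000022842, chr16:20611591-20646476, plus strand) encodes a related peptidase that works at acidic pH inside the cell. It held 16.6, 13.9, 13.6, 13.4 and 15.6 CPM in unstimulated libraries A to E, 13.1, 13.9, 13.6, 14.4 and 13.6 CPM at 10 ng/mL, and 22.1, 25.4, 14.3, 24.6 and 20.4 CPM at 100 ng/mL. Libraries A, B, D and E of the 100 ng/mL group lay above all unstimulated libraries and C lay among them. The log2 fold change was 0.55 ± 0.12 (SE) at 100 ng/mL against unstimulated and 0.64 ± 0.12 at 100 ng/mL against 10 ng/mL. Another protein-coding gene on the same strand, Gm49333, overlaps Ece2 and holds 2913 of its 5191 stretches of 25 bases, or 56.1%, so the Ece2 counts are uncertain. The ratio of Ece1 to Ece2 in RPKM averaged 72.4 ± 3.1, 76.8 ± 3.3 and 48.2 ± 13.9 at 0, 10 and 100 ng/mL (SD, n = 5 each).

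The receptor genes differed from each other. Ednra (ENSMUSG00000031616, chr8:77663029-77724464, minus strand) was low in every group. It held 1.61, 0.776, 1.89, 0.804 and 1.17 CPM in unstimulated libraries A to E, 0.947, 1.46, 0.636, 0.868 and 1.18 CPM at 10 ng/mL, and 0.747, 1.17, 1.93, 0.876 and 2.05 CPM at 100 ng/mL. The groups overlapped throughout. The log2 fold change was 0.12 ± 0.32 (SE, 95% confidence interval -0.57 to 0.82) at 100 ng/mL against unstimulated and 0.42 ± 0.33 at 100 ng/mL against 10 ng/mL. These values rested on 23.5 to 72.3 estimated counts per library. A transcript on the opposite strand, 4933431K23Rik, overlaps Ednra.

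Ednrb (ENSMUSG00000022122, chr14:103814623-103844173, minus strand) was low in unstimulated and 10 ng/mL cells and abundant at 100 ng/mL. It held 3.99, 2.92, 6.14, 6.59 and 4.93 CPM in unstimulated libraries A to E, 3.57, 6.09, 11.2, 9.46 and 4.43 CPM at 10 ng/mL, and 353.8, 93.4, 491.5, 314.9 and 360.6 CPM at 100 ng/mL. Every 100 ng/mL library lay above every other library, and B was the lowest of them. Over all genes, 13.5% had every 100 ng/mL library above every unstimulated library. The log2 fold change was 6.04 ± 0.46 (SE) at 100 ng/mL against unstimulated and 5.53 ± 0.45 at 100 ng/mL against 10 ng/mL. Without library B the 100 ng/mL mean was 380.2 ± 76.9 CPM (SD, n = 4), against 322.9 ± 144.5 with it (n = 5), and the log2 fold change against unstimulated was 6.27. Ednrb had the 8th highest log2 fold change of the 17650 genes at 100 ng/mL against unstimulated. Of the 5 members, 3 would pass the threshold over all genes at 100 ng/mL against unstimulated, 2 higher and 1 lower, and 3 at 100 ng/mL against 10 ng/mL, where 40.5% of all genes did. Since the members were chosen on this contrast, the counts are given without a reading.

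**Figure D2:**
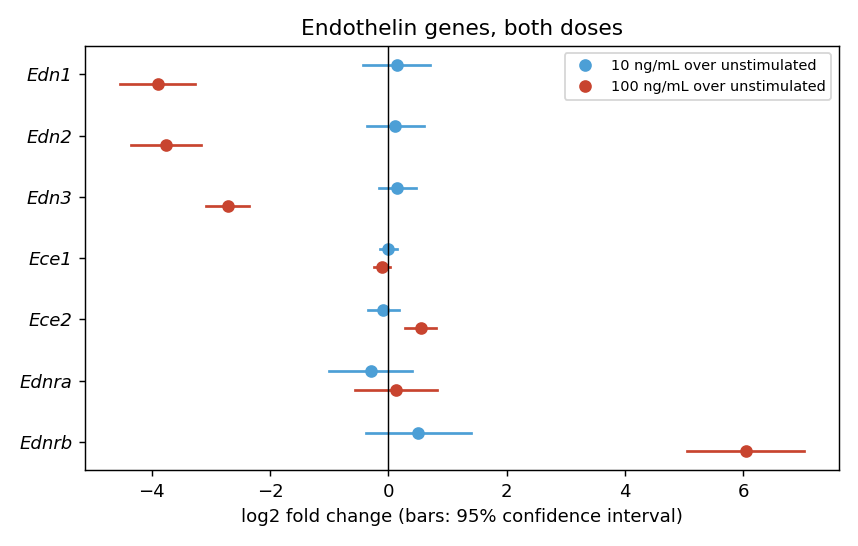
log2 fold change with its 95% confidence interval (bars) for the endothelin ligand, enzyme and receptor genes at 10 ng/mL and 100 ng/mL over unstimulated cells. All intervals at 10 ng/mL include 0, while at 100 ng/mL Edn1 lies at -3.90 and Ednrb at 6.04.

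At 10 ng/mL none of the members passed the test against unstimulated cells (edgeR quasi-likelihood, Benjamini-Hochberg over all genes), with 0 of 5 called, beside 0% of all genes. Ednrb stood at 0.51 ± 0.42 on the log2 scale (SE, 95% confidence interval -0.38 to 1.39, adjusted p = 0.969), and its highest 10 ng/mL libraries, C and D, lay above all unstimulated libraries. For Ednra the value was -0.30 ± 0.33 (-1.01 to 0.40, adjusted p = 0.969). Edn1 had a log2 fold change of 0.14 ± 0.27 (-0.43 to 0.71, adjusted p = 0.975), and 0.25 without library D of the 10 ng/mL group. The interval for Ece1 was -0.14 to 0.14 (adjusted p = 1), and that for Ece2 was -0.35 to 0.17 (adjusted p = 0.969). Over all genes 0 were called at this dose in edgeR, 844 had an unadjusted p under 0.05 (4.78%), and DESeq2 called 10. The intervals bound the change at 10 ng/mL and do not show that the doses act alike. The 10 ng/mL and 100 ng/mL comparisons share the same unstimulated libraries.

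The order of levels within the system, compared in RPKM because genes differ in length, differed at 100 ng/mL. In unstimulated cells it was Edn1 (211.0), Ece1 (86.7), Edn2 (3.77), Ece2 (1.20), Ednrb (0.654), Edn3 (0.612) and Ednra (0.126), and Ednrb and Edn3 overlapped. At 10 ng/mL the order was the same, with Edn1 at 226.8 and Ednrb at 0.905, which overlapped Ece2 and Edn3. At 100 ng/mL it was Ece1 (78.4), Ednrb (41.9), Edn1 (13.7), Ece2 (1.71), Edn2 (0.271), Ednra (0.132) and Edn3 (0.0896), and Ednrb and Edn1 overlapped through library B. Edn2 overlapped Ednra there, and Ednra overlapped Edn3. The ligand was above the receptor in each unstimulated and 10 ng/mL library. The Edn1 to Ednrb ratio averaged 352.7 ± 134.9 in unstimulated cells, 312.2 ± 172.2 at 10 ng/mL and 0.609 ± 0.890 at 100 ng/mL (SD, n = 5 each). At 100 ng/mL it was 2.20 in library B and 0.188 to 0.239 in the other 4. Ednrb made up 83.5 ± 5.5%, 88.2 ± 6.1% and 99.6 ± 0.3% of the summed RPKM of both receptors at 0, 10 and 100 ng/mL, so that it was the main receptor transcript in every group.

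**Figure D3:**
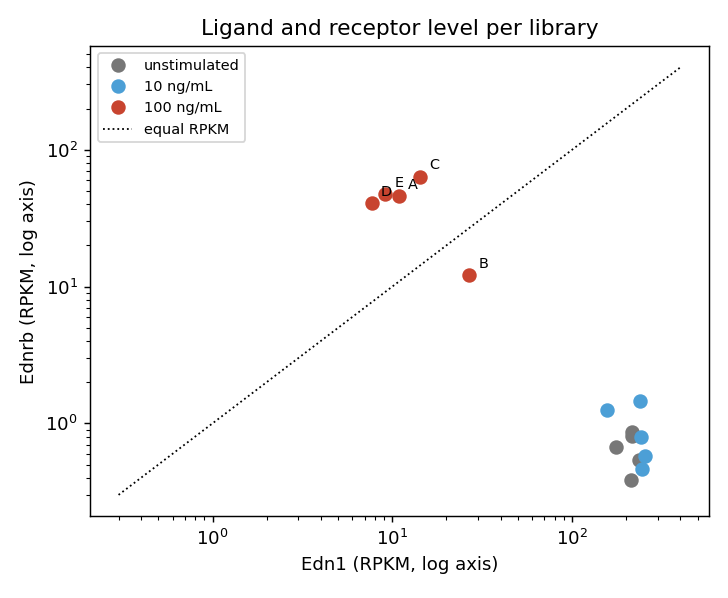
RPKM of Ednrb (vertical axis) against RPKM of Edn1 (horizontal axis) in each library, both on log axes, with a dotted line at equal RPKM and letters on the 100 ng/mL libraries. The 10 libraries at 0 and 10 ng/mL lie below the line, 4 of the 100 ng/mL libraries lie above it, and library B lies below it with a ratio of 2.20.

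Across the 15 libraries the genes whose log2 CPM ran most closely with Ednrb were Rnf144a (Pearson r = 0.992), Adgrg3 (0.990), Srgap1 (0.990), Ntn1 (0.990), Gprc5c (0.989) and Itga9 (0.988), of 11146 genes compared. The lowest were Larp1b and Sdc4 (-0.986 each) and Otub2 (-0.985). Those closest to Edn1 were Bmp4 and Setbp1 (0.996 each) and Serpina3f (0.995). The libraries share the step between doses, so these r values mainly describe that step. With group means removed, Evi5l (0.911), Capn5 (0.910), Arsg (0.906) and Plin2 (0.898) were closest to Ednrb. With 100 ng/mL library B left out, a choice made after the data were seen, these 4 values were 0.879, 0.831, 0.796 and 0.790 (n = 14). The value for Edn1 with Ednrb was -0.605 with all libraries and -0.091 without that library, so it rests on library B. Ednra, which showed no such step, was closest to Ifi27 (0.897), Pla1a (0.858) and Adcy7 (0.857). All are descriptions over 15 libraries of 3 groups.

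Cell type markers are given beside these results; at 100 ng/mL against unstimulated 42.9% of all genes were called, and at 10 ng/mL no listed marker was. Of 14 tested fibroblastic and mural markers 12 fell at 100 ng/mL against unstimulated and none rose, with summed levels of 163.7 to 603.9 CPM at 100 ng/mL, against 2062 to 3658 CPM in unstimulated libraries. The highest sum at 100 ng/mL was in library B, which also had the highest Edn1 and the lowest Ednrb of its group. The rest of that group did not follow this order. Library E had the next highest sum (432.8 CPM), with Edn1 at 40.3 and Ednrb at 360.6 CPM. Library A had the lowest sum, with Edn1 at 49.1 CPM. All 6 tested leukocyte markers fell, to sums of 14.1 to 34.2 CPM at 100 ng/mL, against 42.4 to 114.6 CPM in unstimulated libraries, and Cd3e was at or near 0 in every group. Of 7 tested lymphatic markers 5 rose and none fell. Prox1 (adjusted p = 0.0589, edgeR) and Pdpn (adjusted p = 0.453) did not pass, and Pecam1 and Cdh5, which are shared by all endothelium, were among the 5. The list had sums of 6580 to 9188 CPM at 100 ng/mL, against 4429 to 5124 CPM in unstimulated libraries. The part of these shifts in the Edn1 and Ednrb differences was not tested. Ednrb is also a gene of neural crest cells and melanocytes, and Dct, Tyrp1 and Mlana reached at most 0.0304, 0 and 0.0311 CPM in any library, while Mitf and Sox10 rose and Pmel fell among the 4 tested markers of that kind. The pericyte channel genes Abcc9 and Kcnj8 rose, to 37.3 ± 18.0 and 27.6 ± 10.47 CPM at 100 ng/mL, against 0.23 ± 0.11 and 0.24 ± 0.13 CPM in unstimulated cells (SD, n = 5 each), whereas the pericyte genes Higd1b and Vtn reached at most 0.1 and 0.183 CPM in any library. Of 8 tested blood capillary markers 3 rose and 1 fell (50%, near the share of all genes), and the sums overlapped, at 2872 to 4465 CPM at 100 ng/mL, against 3406 to 4732 CPM in unstimulated libraries. Car4 reached at most 0.084 CPM.

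The genes around the system were counted in 6 lists of 116 genes, against the 42.9% of all genes called at 100 ng/mL against unstimulated and an all-gene median log2 fold change of 0.01. All adjusted p-values are from edgeR's quasi-likelihood test over all genes. The lists were chosen with earlier results of these data known, which limits what these p-values show. Of the other ligand and processing genes, 9 of 12 were tested, 3 rose and 4 fell, and the median was -0.07. Besides Edn2 and Edn3, the falls were Mme, neprilysin, which breaks down endothelin (log2 fold change -3.94 ± 0.42, adjusted p = 3.83e-06; at most 11.3 estimated counts in any 100 ng/mL library), and the convertase gene Pcsk5. The convertase genes Furin, Pcsk6 and Pcsk7 rose, with Pcsk6 at 192.5 ± 47.1 CPM at 100 ng/mL, against 35.4 ± 13.3 CPM in unstimulated cells (log2 fold change 2.44 ± 0.25, adjusted p = 2.35e-06). Ctsa and Mmel1 did not pass the test, and Ecel1, Kel and Cma1 were too low to test.

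Of the 23 G protein and effector genes, all tested, 9 rose, 4 fell and 10 did not pass (median 0.15). Gnaq, which encodes the subunit that couples endothelin receptors to phospholipase C, averaged 145 ± 9.05 CPM at 100 ng/mL, against 315.4 ± 22.7 CPM in unstimulated cells (-1.12 ± 0.07, adjusted p = 4.04e-08). Its close relative Gna11 rose by 0.23 ± 0.05 on the log2 scale (adjusted p = 0.000811). Itpr2, an intracellular calcium channel gene, rose by 0.90 ± 0.11, the protein kinase C gene Prkce by 0.67 ± 0.09, and the inhibitory subunit gene Gnai3 by 0.35 ± 0.05. The phospholipase genes Plcb1 and Plcb4 fell. Of 17 desensitisation genes 16 were tested, 3 rose and 5 fell (median 0.04). Rgs2, a regulator that quiets Gq signals, rose by 0.86 ± 0.14 (adjusted p = 0.000158), and Rgs3, Rgs12 and Rgs16 fell by 0.71, 0.41 and 0.86 on the log2 scale.

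Of the 18 nitric oxide and prostanoid genes, all tested, 2 rose and 8 fell (median -0.53). The endothelial nitric oxide synthase gene Nos3 averaged 196.6 ± 31.4 CPM at 100 ng/mL, against 124.5 ± 7.84 CPM in unstimulated cells (0.66 ± 0.11, adjusted p = 0.000172). Nos2, the inducible synthase gene, averaged 13.4 ± 5.3 CPM at 100 ng/mL, against 1.56 ± 0.19 CPM in unstimulated cells (3.10 ± 0.24, adjusted p = 1.81e-07). Both synthase genes rose, and other genes overlap Nos3, so its counts are uncertain. Cav1, whose protein holds endothelial synthase inactive, fell (-0.79 ± 0.13, adjusted p = 0.000163), as did Ddah1, which breaks down an inhibitor of the synthases (-1.15 ± 0.13, adjusted p = 7.86e-06). The falls also held Pde5a, Prkg1, Ptgis and Gucy1b1, genes known from smooth muscle as well, and the fibroblastic and mural sums given above fell at the same dose. Their part in this list was not tested.

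Of the 17 regulators of Edn1 transcription, all tested, 4 rose and 8 fell (median -0.34). The AP-1 gene Fos fell to 10.8 ± 2.9 CPM at 100 ng/mL, against 86.0 ± 21.2 CPM in unstimulated cells (-3.0 ± 0.19, adjusted p = 2.63e-08). Gata2, which encodes a GATA factor known to act on the Edn1 promoter, averaged 46.5 ± 5.8 CPM at 100 ng/mL, against 117.0 ± 15.6 CPM in unstimulated cells (-1.33 ± 0.10, adjusted p = 1.04e-07). Epas1, which encodes HIF-2 alpha, fell by 1.42 ± 0.13 on the log2 scale (adjusted p = 6.58e-07) and Smad3 by 0.49 ± 0.05 (adjusted p = 5.14e-06), while Hif1a did not pass the test. Klf2, a flow-responsive factor known to repress Edn1, rose by 1.90 ± 0.36 (adjusted p = 0.00067).

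Of the 29 other vasoactive receptor genes 22 were tested, 8 rose and 7 fell (median 0.28). The adrenomedullin receptor genes rose together: Calcrl by 2.07 ± 0.23 (adjusted p = 5.11e-06), and its partners Ramp2 by 1.02 ± 0.13 and Ramp3 by 3.36 ± 0.33. S1pr1, the sphingosine-1-phosphate receptor gene, rose by 0.60 ± 0.07 (adjusted p = 8.73e-06). Npr3, the natriuretic peptide clearance receptor gene, fell by 2.59 ± 0.25 on the log2 scale (adjusted p = 1.56e-06). In all 6 lists 0 genes were called at 10 ng/mL against unstimulated, and at an unadjusted p under 0.05 there was 1 gene in each of the nitric oxide and prostanoid list and the Edn1 regulator list, and none in the other 4; DESeq2 called 10 of all genes tested.

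**Figure D4:**
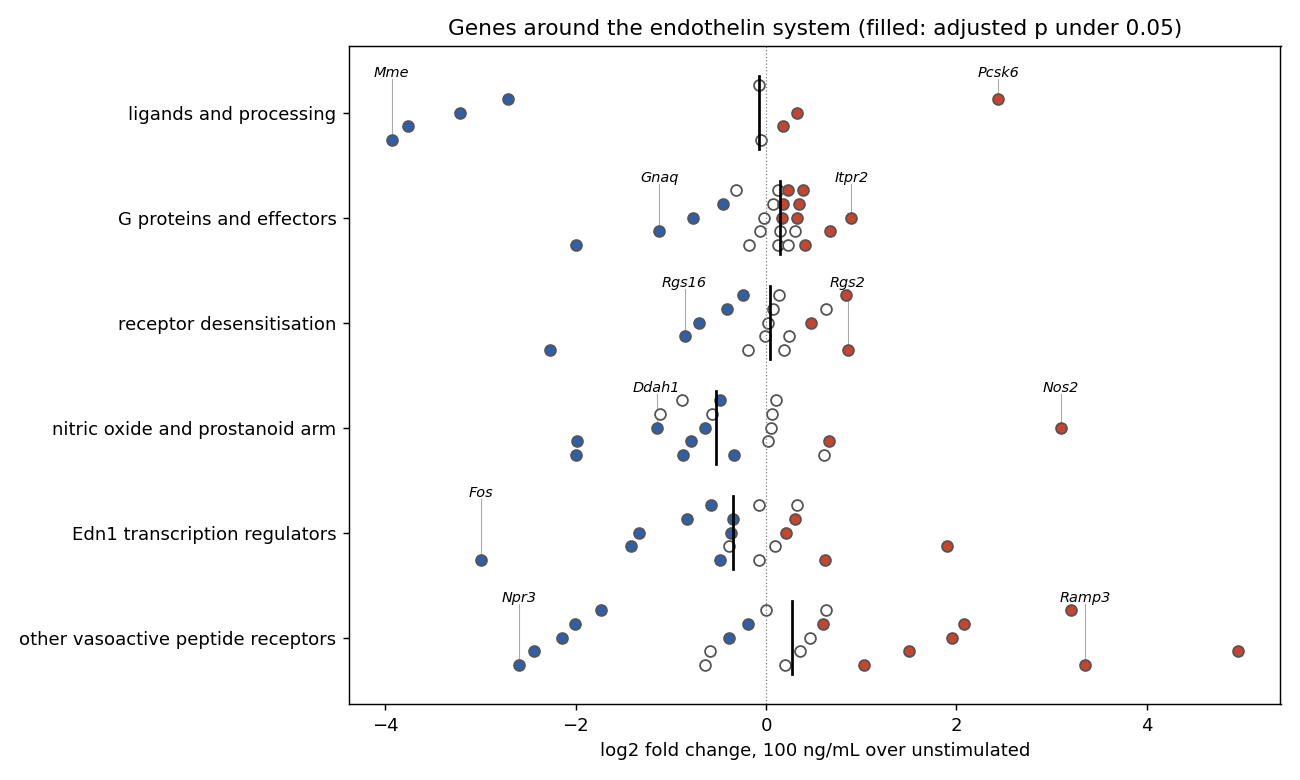
log2 fold change at 100 ng/mL over unstimulated for each tested gene of the 6 lists, 1 point a gene, filled where the adjusted p was under 0.05 (red higher, blue lower), with a bar at the median of each list. Labels mark genes among the 4 called genes of each list with the smallest p. These are the lowest and, where it rose, the highest, for example Mme at -3.94 and Pcsk6 at 2.44 in the ligand and processing list. In the Edn1 regulator list only Fos is labelled.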

How the data were processed

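RNA abundance was measured by stranded poly-A RNA sequencing in 15 libraries. Groups came from the sample titles. The authors deposited an estimated count and an RPKM value per gene and library, per the file headers; 64.3% of the estimated counts were fractional. RPKM deposited by the authors used a library total 1.86 to 1.92 times the sum of counts. The submitters' processing notes name FastQC, Bowtie2, limma and the builds GRCm38 and mm10. Not given in the sources used here were the read counter, its strand setting and how it treated multi-mapping reads, so overlapping or near-identical genes are uncertain. A second deposited table was not used.

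Estimated counts were rounded, filtered with filterByExpr, scaled by TMM and fitted with edgeR 4.0.16 (quasi-likelihood; R 4.3.3) on all 15 libraries with group as the only term and Benjamini-Hochberg adjustment. CPM are TMM-scaled; log2 CPM used a prior count of 2. Alternatives used DESeq2 1.42.0, limma 3.58.1, other filters and scalings, and libraries left out. Within groups, all pairs of libraries differed beyond counting noise (chi-square per degree of freedom at least 8.64).

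The members and lists were chosen with earlier results of these data known. The named genes are the members, the 4 called genes of each list with the smallest p, list genes given by role, and the genes most correlated with Ednrb, Ednra and Edn1. List genes named beyond those 4 were picked for their role after their values were seen. 1 of the listed genes is not reported here. Sequences are from RefSeq.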

Additional observations from a re-analysis of the deposited data

Results flagged for a closer look

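Of 24 groups of 5 libraries examined, 4 held a library far from the others, and chance gives such a library in about 1 group in 20. The groups reuse the same 15 libraries and are not independent, so that share is only a rough guide. At 10 ng/mL, library D held 689.4 CPM of Edn1, against 1072 to 1141 CPM in the other 4 libraries, 3.67 CPM of Edn3, against 5.45 to 5.71 CPM, and 963.0 CPM of Ece1, against 797.1 to 844.4 CPM. In the unstimulated group, library E held 745.1 CPM of Edn1, against 938.7 to 1009 CPM in the other 4. These are the libraries that also had low scores on the second principal component, and the 100 ng/mL library with such a score, B, had the highest Edn1 of its group.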

How the results depend on the processing

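Edn1 stayed lower and Ednrb higher at 100 ng/mL under every alternative run, with log2 fold changes against unstimulated of -4.36 to -3.76 and 4.53 to 6.28. The 4.53, and 4.35 against 10 ng/mL, came from log2(RPKM + 1), which compresses low levels; Ece2 was 0.29 and 0.36 on that scale. With 3 libraries left out after the data were seen (100 ng/mL B, 10 ng/mL D and unstimulated E), Edn1 was -4.36 and -4.54. Ednra had no stable sign (-0.08 to 0.31 against unstimulated). At 10 ng/mL, Ece1 lay at 0.00075 with DESeq2 size factors, 0.00073 with the DESeq2 Wald test, and between -0.047 and 0.035 with 1 library left out, around a main value of -0.00030. No member was called at 10 ng/mL under any alternative.

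At 100 ng/mL against unstimulated 7571 genes were called, and 4976 with a filter of 10 CPM in 5 libraries, which tests fewer genes; with it the desensitisation list had 5 called, against 8, and the nitric oxide and prostanoid list 5, against 10. At 10 ng/mL the DESeq2 Wald test called 10 genes, against 0, and leaving out 1 library gave 0 to 1, with 1 without 100 ng/mL B. The 24 named list genes kept direction and call in all 595 values obtained. They were picked for the smallest p in this contrast and refitted on the same libraries, so this shows little. On log2(RPKM + 1) fold changes were smaller for low genes: -0.12 for Mme (-0.84 with 0.1 in place of 1), -0.56 for Edn3 and -1.90 for Edn2. On that scale Nos2 was 1.12, Rgs2 0.39 and Ramp3 2.14.

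Libraries with the same letter did not deviate from group means together (correlations from -0.342 to 0.132). Each lower-dose library ran closest with another letter. Unstimulated A to E were closest to 10 ng/mL E, A, B, C and D in turn (r = 0.487 to 0.786). The 10 ng/mL libraries were closest to 100 ng/mL D, E, A, B and C (0.210 to 0.428), but unstimulated A and B were both closest to 100 ng/mL C. Whether such libraries share a source was not tested, and the main fit leaves out any such pairing. With a block on these letters 7069 genes were called at 100 ng/mL against unstimulated, 0 at 10 ng/mL and 6582 at 100 against 10 ng/mL. Since the letters did not match the libraries that ran together, this block cannot show how the calls would stand under pairing. Ednra, Edn2 and Edn3 rest on few counts, which limits them.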
